A study of Mus musculus with 9 samples.

Results

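The nuclear genes that encode large subunit proteins of mitochondrial ribosomes were followed in mouse embryonic stem cells after treatment meant to remove Zbtb11, a zinc finger transcription factor. The genes were all protein-coding genes whose symbol is Mrpl followed by a number, with symbols matched from the Ensembl identifiers of the count files. There were 48 of them among the 37310 gene rows, and all 48 passed the filter on low counts. Mrpl33, which is in the annotation used for names, matched no row, and 2 rows of pseudogenes, Mrpl23-ps1 and Mrpl48-ps, were not counted as members.

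All cells were of the E14 line, were grown without feeder cells and were sampled at 72 h in 3 groups of 3 libraries. The libraries labelled Zbtb11 KO came from cells with Zbtb11lox/lox alleles and ERt2-Cre at the Rosa26 locus, treated with 250 nM 4-hydroxytamoxifen (4OHT), which switches on the ERt2-Cre recombinase. The 4OHT control had wild-type Zbtb11 and Rosa26 loci and received the same 250 nM of 4OHT, so it differed from the labelled KO cells in genotype and not in drug. The ethanol control had the floxed alleles and ERt2-Cre and received the carrier ethanol, so it differed in drug and not in genotype. The labels do not state whether replicates were separate cultures, and the spread that the p-values measure may therefore be technical.

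The mitochondrial ribosome translates the few proteins encoded in mitochondrial DNA, all of them parts of the respiratory chain and ATP synthase. Its RNAs are made in the organelle, whereas every protein of it is encoded in the nucleus, made in the cytosol and imported. The large subunit joins amino acids at the peptidyl transferase centre and releases the chain through an exit tunnel near the inner membrane. The flexible L1 and L7/L12 stalks handle transfer RNAs and translation factors, and the central protuberance faces the small subunit. Some of its proteins descend from those of bacterial ribosomes and others were added in the mitochondrial lineage.

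Reads assigned to genes came to between 16909139 and 23544893 per library, and levels are given as CPM (counts scaled to a common library size) after TMM scaling, which can be compared between libraries but not between genes of different length. The embryonic stem cell marker list was present in full, with 8 of 8 genes at 1 CPM or more in every library and a sum of 3760 to 4076 CPM in the libraries labelled KO, 4090 to 4665 CPM in the 4OHT control and 3930 to 4122 CPM in the ethanol control. Summed levels of the primitive endoderm marker list were 11 to 14.4 CPM in the libraries labelled KO, 6.78 to 7.83 CPM in the 4OHT control and 6.25 to 9.69 CPM in the ethanol control. The fibroblast list summed to 18.5 to 18.6 CPM in the libraries labelled KO, 13.9 to 14.8 CPM in the 4OHT control and 15.3 to 18.6 CPM in the ethanol control. The trophoblast list summed to 65.9 to 69.8 CPM in the libraries labelled KO, 39.5 to 59.8 CPM in the 4OHT control and 69.0 to 77.0 CPM in the ethanol control. The endoderm list thus stood above both controls, the fibroblast and trophoblast lists above the 4OHT control and the stem cell list below it, in each case with no overlap. These sums rest on few genes outside the stem cell list. Only 3 of 6 endoderm, 2 of 6 fibroblast and 1 of 5 trophoblast genes were at 1 CPM or more in every library. Tfap2c alone averaged 59.7 CPM over all libraries, so the trophoblast sum is mostly this gene. The mesoderm and neuroectoderm lists reached at most 8.06 and 23.0 CPM in a library, the libraries labelled KO overlapping each control, and no gene of any list was at 0 in every library. Reads without an assigned feature made up 32.7% to 33.8% of the labelled KO files, 26.7% to 27.5% of the 4OHT control files and 26.4% to 28.7% of the ethanol control files; the part of this difference and of the marker lists in the results was not tested. Zbtb11 itself had 370, 386 and 376 CPM in the libraries labelled KO, 364, 378 and 361 CPM in the 4OHT control and 348, 359 and 360 CPM in the ethanol control. The count covers the whole gene and the labels do not say which exons are flanked by lox sites, so it does not check the deletion, and the name KO rests on the labels.

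Against the ethanol control, 25 of the 48 Mrpl genes fell in the libraries labelled KO, none rose and 23 were not called (edgeR's quasi-likelihood test, adjusted p under 0.05 over all 16224 genes tested). Of all genes tested, 14.2% fell and 13.0% rose in this comparison. The falls were very uneven: 9 members fell by at least 1 on the log2 scale, that is at least 2-fold, against 1.16% of all genes, and only 2 more fell by 0.5 or more, a size of fall reached by 3.76% of all genes. The other 14 falls lay between -0.42 and -0.20. The median log2 fold change of the 48 members was -0.22, against 0.01 for all genes tested. With the replicate number as a block 33 members fell. Over all genes tested the block gave 3625 falls and 3311 rises, against 2307 and 2110 without it. In 29 members every library labelled KO lay below every ethanol library, which held for 20.5% of all genes tested, and in the other 19 the groups overlapped. No member had every library labelled KO above every ethanol library, which 21.3% of all genes did, and 27.2% of all genes were called in either direction.

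**Figure D1:**
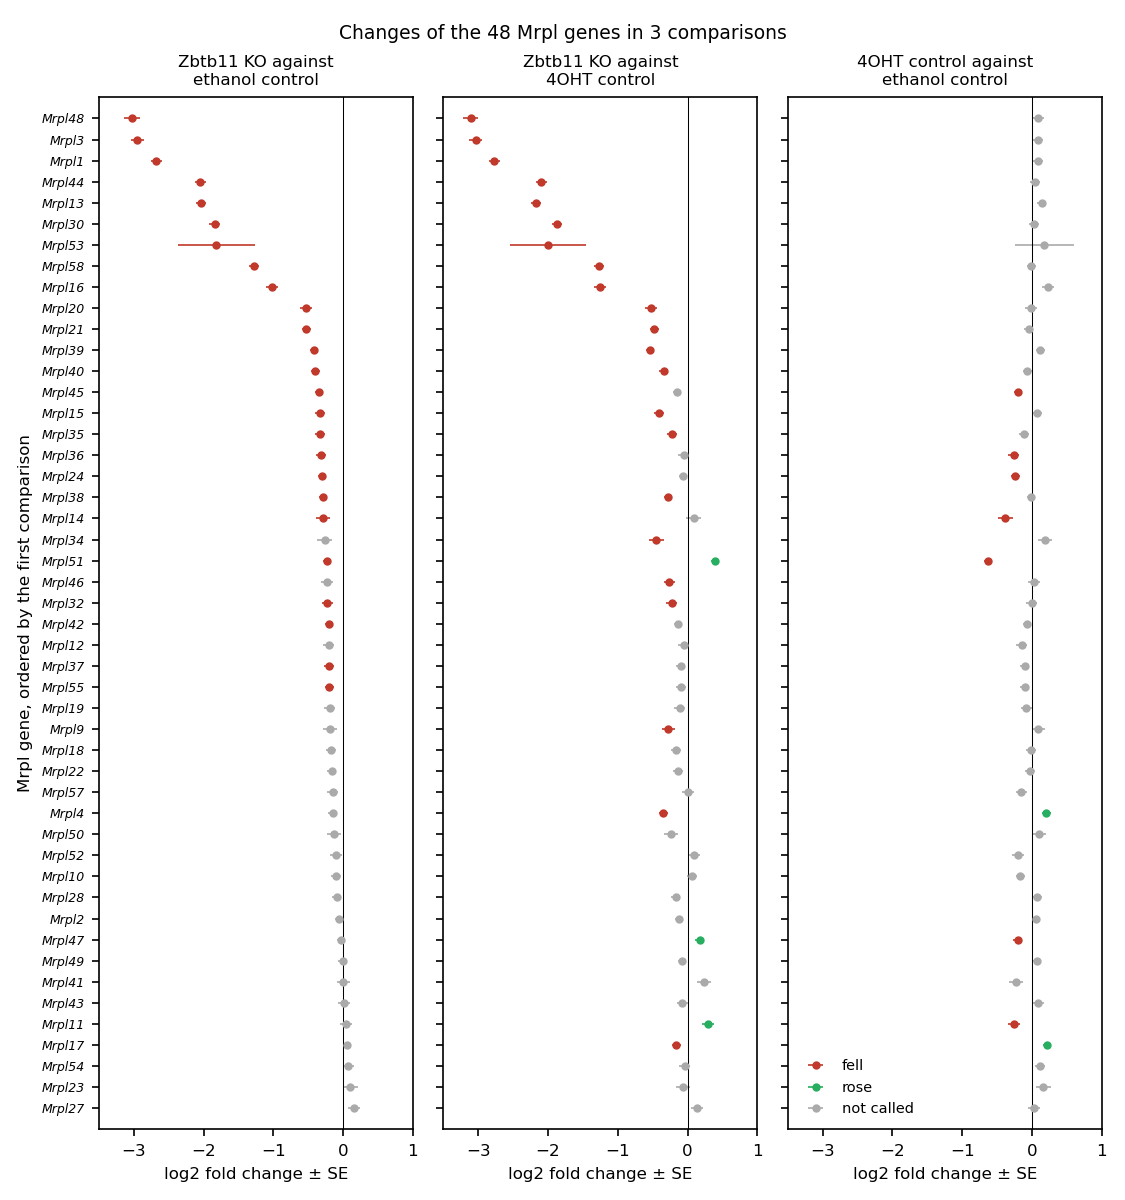
Log2 fold change with its standard error (SE) of each of the 48 Mrpl genes, ordered from the largest fall in the first comparison, for the libraries labelled Zbtb11 KO against the ethanol control (left), the libraries labelled KO against the 4OHT control (middle) and 4OHT control against ethanol control (right); colours mark genes called at an adjusted p under 0.05. In both comparisons of the libraries labelled KO 9 genes lie at -1 or below, and in the right panel none does.

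The L1 stalk is represented by Mrpl1, the counterpart of bacterial L1, which helps to release spent transfer RNA. Mrpl1 had 8.87, 8.07 and 7.38 CPM in the libraries labelled KO, 56.3, 58.2 and 52.0 CPM in the 4OHT control and 50.2, 53.8 and 52.6 CPM in the ethanol control. All 3 libraries labelled KO lay far below all 6 control libraries. The log2 fold change was -2.68 ± 0.08 (SE) against the ethanol control (adjusted p = 8.2e-13, edgeR) and -2.77 ± 0.08 against the 4OHT control (adjusted p = 4.0e-13, edgeR).

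Around the peptidyl transferase centre, 2 of 4 members fell, where 14.2% of all genes tested fell against the ethanol control. Of all 48 members 25 fell, so this count does not set the place apart from the other members. Mrpl3, a protein that reaches from the surface towards that centre, had 7.47, 6.47 and 5.62 CPM in the libraries labelled KO, 54.7, 53.7 and 53.2 CPM in the 4OHT control and 48.4, 55.5 and 48.3 CPM in the ethanol control. Mrpl16, which in bacteria helps to position the transfer RNA ends, had 15.1, 15.5 and 13.4 CPM in the libraries labelled KO, 32.2, 38.7 and 34.4 CPM in the 4OHT control and 28.6, 29.6 and 31.5 CPM in the ethanol control. For both genes the libraries labelled KO did not overlap either control. Mrpl3 was at 12.8% of its ethanol level (-2.95 ± 0.09, adjusted p = 1.4e-12, edgeR) and Mrpl16 at 49.0% (-1.03 ± 0.09, adjusted p = 3.1e-07, edgeR). The other two, Mrpl2 and Mrpl27, had log2 fold changes of -0.06 and 0.16 and were not called.

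In the central protuberance 4 of 6 members fell, where 14.2% of all genes tested fell against the ethanol control. Beside 25 falls among all 48 members, a count over so few members does not set this place apart from the others. Mrpl48, a protein with no bacterial counterpart, had 2.38, 2.34 and 1.98 CPM in the libraries labelled KO, 19.2, 19.1 and 19.8 CPM in the 4OHT control and 18.8, 17.2 and 18.9 CPM in the ethanol control. It showed the steepest fall of all 48 members, -3.03 ± 0.11 against the ethanol control (adjusted p = 7.3e-12, edgeR) and -3.11 ± 0.11 against the 4OHT control. The row of its processed pseudogene held 1, 1 and 2 counts in the libraries labelled KO, 12, 13 and 14 in the 4OHT control and 12, 13 and 12 in the ethanol control, so reads of the copy and of the gene may not have been told apart. Mrpl58, also known as Ict1, is a peptidyl-tRNA hydrolase that became a fixed part of the subunit. It had 19.9, 20.2 and 19.9 CPM in the libraries labelled KO, 51.4, 45 and 48.7 CPM in the 4OHT control and 51.4, 49.9 and 44.6 CPM in the ethanol control. No library labelled KO came near a control library, and the log2 fold change was -1.28 ± 0.07 (adjusted p = 2.3e-09, edgeR) against the ethanol control. Mrpl40 (-0.40) and Mrpl38 (-0.30) fell modestly, and Mrpl46 (-0.23) and Mrpl18 (-0.18) were not called; with the replicate number as a block both passed, at adjusted p = 0.011 and 0.0024 (edgeR).

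With 14.2% of all genes tested falling against the ethanol control, a count of 1 in 5 members does not set the L7/L12 stalk apart. At this stalk, which recruits translation factors, 1 of 5 members was called. That was Mrpl53, the least expressed member, with 6, 1 and 3 counts in the libraries labelled KO, 6, 13 and 19 in the 4OHT control and 12, 11 and 12 in the ethanol control. Its fold (-1.82 ± 0.55, adjusted p = 0.023, edgeR) rests on few reads, and the call was lost without ethanol control replicate 3 (adjusted p = 0.070), labelled KO replicate 2 (0.079) or labelled KO replicate 3 (0.051). The annotated span of Gm42688, a protein-coding gene on the same strand, overlaps Mrpl53, and reads in the shared stretch may have been counted for neither or for the other gene; Gm42688 had 60, 47 and 43 counts in the libraries labelled KO, 34, 26 and 31 in the 4OHT control and 36, 32 and 30 in the ethanol control. Mrpl12, the protein that forms the stalk's arms and among the 3 members with the highest CPM, had 112, 139 and 119 CPM in the libraries labelled KO, 117, 139 and 131 CPM in the 4OHT control and 136, 145 and 146 CPM in the ethanol control. Its groups overlapped in both comparisons, and the log2 fold change against the ethanol control was -0.21 ± 0.08 (adjusted p = 0.064, edgeR; 0.00018 with the replicate block). Mrpl10, Mrpl11 and Mrpl54 had log2 fold changes of -0.10, 0.04 and 0.07 and were not called, although Mrpl10 passed with the replicate block (adjusted p = 0.036, edgeR).

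Of the 7 members sorted here to the exit tunnel 2 fell, both modestly, where 14.2% of all genes tested fell against the ethanol control. With so few members this count does not set the place apart. Mrpl45, which holds the tunnel exit against the inner membrane and had the highest mean CPM of all members, had 122, 132 and 128 CPM in the libraries labelled KO, 134, 144 and 147 CPM in the 4OHT control and 151, 170 and 168 CPM in the ethanol control. The 3 groups lay in that order with no overlap between neighbours. Against the ethanol control it fell by 0.35 ± 0.06 on the log2 scale (adjusted p = 0.00044, edgeR), and against the 4OHT control it was not called (-0.15 ± 0.06, adjusted p = 0.058, edgeR; 0.0015 with the replicate block). Mrpl24, at the tunnel's outer rim, fell by 0.31 on the log2 scale against the ethanol control and was not called against the 4OHT control (-0.07). Mrpl17 (0.05), Mrpl22 (-0.17), Mrpl23 (0.10), Mrpl4 (-0.15) and Mrpl47 (-0.03) were not called against the ethanol control, although Mrpl22 and Mrpl4 passed with the replicate block (adjusted p = 0.024 and 0.028, edgeR).

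The 25 members not sorted here to one of these places, Mrpl39 and Mrpl44 among them, held 15 of the falls, where 14.2% of all genes tested fell. Over all 48 members 25 fell, a share near that of these members. Mrpl44, which carries a domain like that of RNase III, had 8.95, 8.61 and 7.54 CPM in the libraries labelled KO, 34.3, 36.4 and 36.9 CPM in the 4OHT control and 34.2, 34.9 and 35.0 CPM in the ethanol control. Mrpl13, the counterpart of bacterial L13, had 10.2, 10.6 and 9.46 CPM in the libraries labelled KO, 43.9, 45.1 and 47.6 CPM in the 4OHT control and 41.3, 40.9 and 42.0 CPM in the ethanol control. The libraries labelled KO of both genes lay at 24.1% and 24.4% of the ethanol mean, with log2 fold changes of -2.05 ± 0.08 (adjusted p = 1.7e-11, edgeR) and -2.03 ± 0.07 (adjusted p = 4.6e-12, edgeR) against the ethanol control. Mrpl30, the counterpart of bacterial L30, had 12.7, 12.6 and 11.5 CPM in the libraries labelled KO, 43.5, 47.9 and 43.7 CPM in the 4OHT control and 42.5, 46.8 and 42.9 CPM in the ethanol control. It too stood clear of both controls, at -1.84 ± 0.08 (adjusted p = 3.1e-11, edgeR) against the ethanol control.

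Mrpl20 and Mrpl21, which in bacteria bind the large ribosomal RNA, followed after a gap. Mrpl20 had 35.0, 36.4 and 29.4 CPM in the libraries labelled KO, 47.9, 52.4 and 45.1 CPM in the 4OHT control and 49.6, 51.4 and 45.2 CPM in the ethanol control. Mrpl21 had 34.7, 37.9 and 33.8 CPM in the libraries labelled KO, 50.5, 50 and 47.8 CPM in the 4OHT control and 50.9, 52.0 and 50.5 CPM in the ethanol control. Neither overlapped a control, and the log2 fold changes against the ethanol control were -0.54 and -0.53. Mrpl15 had 101, 122 and 113 CPM in the libraries labelled KO, 139, 150 and 158 CPM in the 4OHT control and 131, 149 and 144 CPM in the ethanol control, without overlap, and fell by 0.34 ± 0.07 (adjusted p = 0.0028, edgeR). Smaller falls against the ethanol control were called for Mrpl39 (-0.42), Mrpl35 (-0.33), Mrpl36 (-0.32), Mrpl14 (-0.29), Mrpl51 (-0.24), Mrpl32 (-0.23), Mrpl42 (-0.21), Mrpl37 (-0.20) and Mrpl55 (-0.20). Mrpl34 (-0.26) and Mrpl19 (-0.19) were not called and passed with the replicate block (adjusted p = 0.0026 and 0.0035, edgeR).

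**Figure D2:**
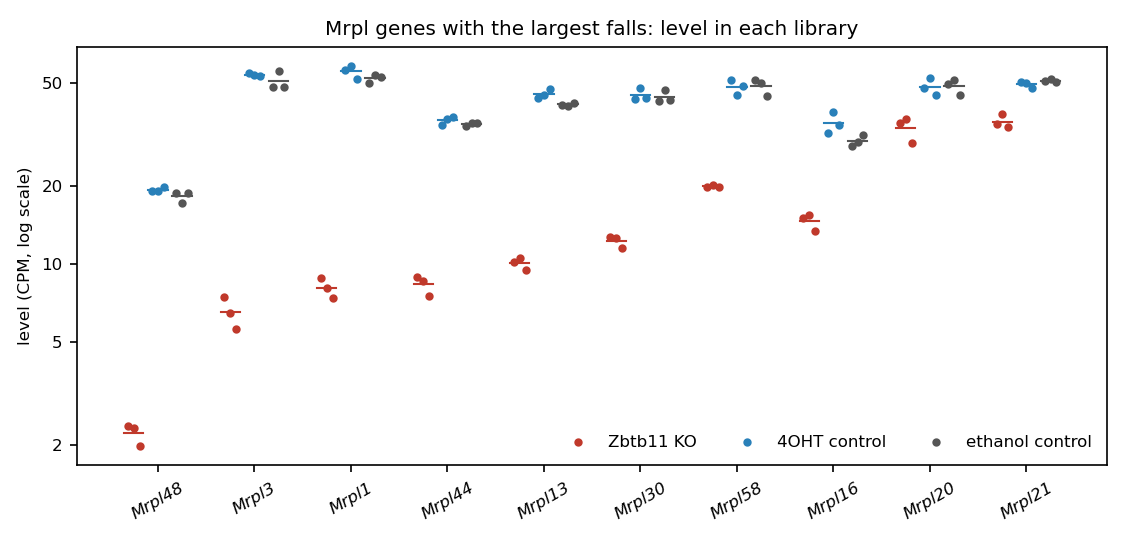
Level in CPM (log scale) of 10 Mrpl genes in each library, with the labelled Zbtb11 KO, 4OHT control and ethanol control libraries from left to right within a gene, points for libraries and short lines for the mean of 3. These are the members that fell by 0.5 or more against the ethanol control, without Mrpl53; every labelled KO point of Mrpl48 lies under 3 CPM, and none of the 10 genes has a labelled KO point at or above a control point.

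Falls were found among members of both origins and on many chromosomes. Of 28 members with a bacterial counterpart 13 fell (median log2 fold change -0.22), and of 19 without one 11 fell (median -0.23). Of all genes tested 14.2% fell against the ethanol control. Mrpl55 was not sorted. The 9 steep falls lay on chromosomes 1, 5, 6, 7, 9, 11, 15 and 19, with both Mrpl30 and Mrpl44 on chromosome 1.

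The upstream sequences of 6 of these members are shown so that the start regions of the steepest falls can be compared. They are the largest falls among members with at least 1 CPM and an entry in the RefSeq promoter table (GRCm38.p6), which held 42 of the 48 members. Each run is the 250 bases before the annotated start, written 5′ to 3′ in the direction of the gene, and capitals mark a match to CCGGAAG, bound by ETS factors such as GABP, or to the palindromic motif of Nrf1, on either strand.
Mrpl48 (chr7:100583131-100583380, minus strand): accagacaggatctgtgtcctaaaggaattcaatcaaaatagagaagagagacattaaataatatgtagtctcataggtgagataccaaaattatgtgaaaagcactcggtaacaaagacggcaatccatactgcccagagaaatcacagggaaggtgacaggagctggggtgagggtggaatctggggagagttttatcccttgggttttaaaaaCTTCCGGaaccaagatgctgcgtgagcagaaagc
Mrpl3 (chr9:105053018-105053267, plus strand): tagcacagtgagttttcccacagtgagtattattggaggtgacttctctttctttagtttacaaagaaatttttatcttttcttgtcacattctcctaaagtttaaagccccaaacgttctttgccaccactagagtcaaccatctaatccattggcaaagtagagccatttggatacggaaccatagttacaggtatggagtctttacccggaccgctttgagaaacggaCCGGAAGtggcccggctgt
Mrpl1 (chr5:96209865-96210114, plus strand): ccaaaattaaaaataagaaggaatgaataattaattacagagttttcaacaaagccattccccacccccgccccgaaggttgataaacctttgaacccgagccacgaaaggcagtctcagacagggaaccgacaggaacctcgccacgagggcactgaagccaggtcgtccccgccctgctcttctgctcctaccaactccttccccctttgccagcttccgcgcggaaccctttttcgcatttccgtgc
Mrpl44 (chr1:79775768-79776017, plus strand): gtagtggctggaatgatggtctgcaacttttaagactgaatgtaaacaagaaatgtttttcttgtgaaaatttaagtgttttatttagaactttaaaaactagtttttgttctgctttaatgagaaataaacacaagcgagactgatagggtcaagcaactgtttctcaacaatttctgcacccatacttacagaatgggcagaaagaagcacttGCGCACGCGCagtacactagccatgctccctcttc
Mrpl30 (chr1:37890227-37890476, plus strand): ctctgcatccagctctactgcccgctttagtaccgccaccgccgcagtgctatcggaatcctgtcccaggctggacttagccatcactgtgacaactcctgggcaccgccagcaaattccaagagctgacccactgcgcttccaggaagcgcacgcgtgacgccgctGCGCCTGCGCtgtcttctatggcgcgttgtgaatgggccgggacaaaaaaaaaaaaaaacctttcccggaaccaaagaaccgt
Mrpl58 (chr11:115403502-115403751, plus strand): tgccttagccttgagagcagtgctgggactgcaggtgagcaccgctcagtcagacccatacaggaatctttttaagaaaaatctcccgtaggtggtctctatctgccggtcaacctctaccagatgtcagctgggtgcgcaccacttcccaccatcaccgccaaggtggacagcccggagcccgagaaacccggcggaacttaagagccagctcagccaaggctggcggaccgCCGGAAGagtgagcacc

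In 3 of the 6 runs the ETS letters stand close to the start, 27 bases before it in Mrpl48, 12 in Mrpl3 and 10 in Mrpl58. In Mrpl44 and Mrpl30 the Nrf1 letters stand 25 and 73 bases before the start, and the Mrpl1 run holds neither motif. Among the 8 steep members with an entry, 4 held the ETS letters, against 28.6% of the 42 members and 13.3% of the 11068 tested genes with an entry. The Nrf1 letters were in 2 of the 8, in 21.4% of the members and in 7.82% of the tested genes. The letters GGGCGG of the Sp family were in 1 of the 8 (12.5%), in 38.1% of the members and in 59.7% of the tested genes, and AAGATGGC of Yy1 was in none of the 8, in 4.76% of the members and in 1.94% of the tested genes. In all 15565 protein-coding genes of the table, 9.96% held the ETS letters and 5.74% the Nrf1 letters. These are matches of letters on both strands within the 250 bases, where the motifs may overlap each other, and they describe the sequence only.

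Added over all 48 members, the level was 1928, 2109 and 1906 CPM in the libraries labelled KO, 2334, 2523 and 2449 CPM in the 4OHT control and 2440, 2579 and 2499 CPM in the ethanol control. The libraries labelled KO lay below both controls, and their mean was 79.0% of the ethanol mean. The 9 steep members added up to 82.4 ± 4.81 CPM in the libraries labelled KO, 339 ± 4.82 CPM in the 4OHT control and 321 ± 7.43 CPM in the ethanol control (SD, n = 3 each). They made up 4.16% of the members' sum in the libraries labelled KO, 13.9% in the 4OHT control and 12.8% in the ethanol control. These 9 accounted for 45.3% of the difference of the sums between labelled KO and ethanol control libraries, and for 56.5% of that to the 4OHT control. They were chosen by their fall against the ethanol control, so a large part in the difference follows from the choice. The other 39 members averaged 1898 ± 109 CPM in the libraries labelled KO, 2096 ± 91.5 CPM in the 4OHT control and 2186 ± 63.1 CPM in the ethanol control. Of these, labelled KO replicate 2, at 2024 CPM, lay above 4OHT control replicate 1, at 1998 CPM, so those groups overlapped, although within each replicate number the library labelled KO was the lower. In bulk libraries a lower level in every cell and fewer cells with an unchanged level cannot be told apart.

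**Figure D3:**
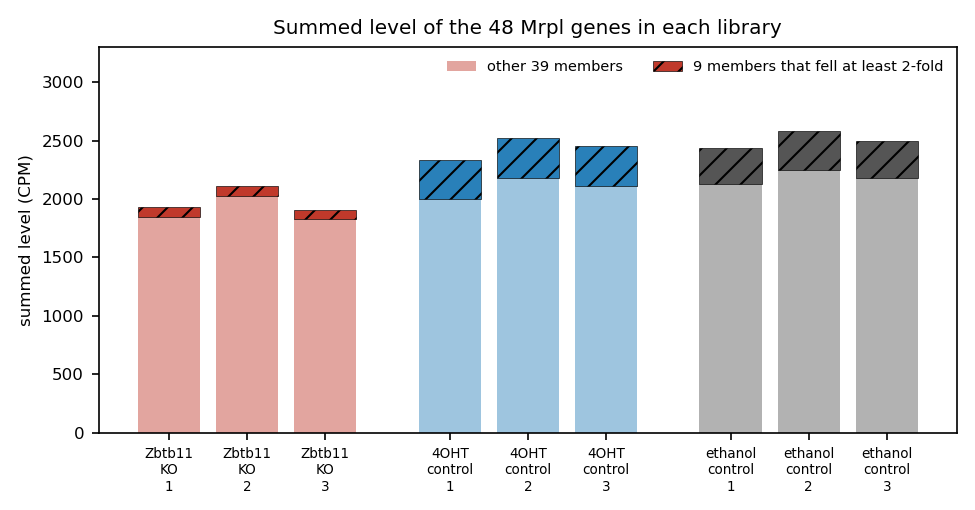
Summed level in CPM of the 48 Mrpl genes in each library, split into the 9 members that fell at least 2-fold against the ethanol control (hatched, top) and the other 39 (plain), with the libraries labelled Zbtb11 KO on the left. The hatched part is 76.9 to 85.9 CPM in the libraries labelled KO, 336 to 345 CPM in the 4OHT control and 316 to 329 CPM in the ethanol control.

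Divided by transcript length, the members spanned a wide range in every group. The median was 23.8 CPM per kb in the libraries labelled KO, 32.1 in the 4OHT control and 29.9 in the ethanol control. Mrpl42 was the highest in each group, at 113, 124 and 130 CPM per kb, and Mrpl53 the lowest. Mrpl48 was second lowest in each group, at 0.52 CPM per kb in the libraries labelled KO, 4.52 in the 4OHT control and 4.27 in the ethanol control. By this measure the member with the steepest fall was already scarce in the controls. The length used for Mrpl48 was 4285 bases, and a shorter transcript would give a higher value. Mrpl13 stood 40th of 48 by this measure in the libraries labelled KO, 20th in the 4OHT control and 21st in the ethanol control, and Mrpl30 stood 33rd, 13th and 14th. Both genes were taken from the steep falls, so a lower rank in the libraries labelled KO follows from that choice.

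Against the 4OHT control, which shares the drug but not the genotype, 22 members fell, 3 rose and 23 were not called, where 19.8% of all genes tested fell and 19.1% rose. Again 9 members fell by at least 1, against 2.88% of all genes, and the median was -0.16, against 0.02 over all genes tested; scaling by library totals alone gave -0.077. In 25 members every library labelled KO lay below every 4OHT control library, and in 4 above, against 23.7% and 24.5% of all genes, of which 38.9% were called in either direction. The same libraries labelled KO enter both comparisons, so the values stand side by side and are not independent. The log2 fold change against the 4OHT control was -3.04 for Mrpl3, -2.10 for Mrpl44, -2.17 for Mrpl13, -1.87 for Mrpl30, -2.0 for Mrpl53, -1.27 for Mrpl58 and -1.25 for Mrpl16. Mrpl53 lost its call there without 4OHT control replicate 3 (adjusted p = 0.051, edgeR). Members called against the 4OHT control and not against the ethanol control had small changes: Mrpl34 (-0.45), Mrpl4 (-0.35), Mrpl9 (-0.28), Mrpl46 (-0.26) and Mrpl17 (-0.16) fell, and Mrpl11 (0.30) and Mrpl47 (0.17) rose. Of these 7 calls, those of Mrpl9, Mrpl46, Mrpl17, Mrpl11 and Mrpl47 were lost under at least 1 alternative, Mrpl47 under 12 of them. The other way round, Mrpl45, Mrpl36 (-0.06), Mrpl24, Mrpl42 (-0.14), Mrpl37 (-0.10), Mrpl55 (-0.09) and Mrpl14 (0.09) were called against the ethanol control and not against the 4OHT control.

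Between the controls, 7 members fell and 2 rose in the 4OHT control relative to the ethanol control, where 8.75% of all genes tested fell and 9.66% rose (18.4% called). With the replicate number as a block 10 fell and 5 rose, and 32.8% of all genes were called. The median was -0.01, against 0.00 over all genes. Mrpl51, a protein without a bacterial counterpart, moved most. It had 55.7, 58.4 and 54.3 CPM in the 4OHT control, against 85.8, 88.2 and 87.3 CPM in the ethanol control, a fall of 0.64 ± 0.06 on the log2 scale (adjusted p = 2e-06, edgeR). The libraries labelled KO had 74.0, 78.4 and 69.6 CPM, between the controls, so Mrpl51 fell against the ethanol control and rose by 0.40 against the 4OHT control (adjusted p = 5.0e-05, edgeR). The other calls between the controls were Mrpl14 (-0.38), Mrpl36 (-0.26), Mrpl11 (-0.25), Mrpl24 (-0.24), Mrpl45 (-0.20), Mrpl47 (-0.20), Mrpl17 (0.21) and Mrpl4 (0.20), and the 9 calls became 3 without ethanol control replicate 2 or 4OHT control replicate 1, 4 without ethanol control replicate 3 and 5 without 4OHT control replicate 2 or 3. None of the 9 steep members was called between the controls, although Mrpl16 (0.23) passed with the replicate block (adjusted p = 0.0068, edgeR), and no member fell by at least 1 there, against 1.0% of all genes.

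In the GENCODE M21 annotation 24 members start within 1000 bases of a protein-coding gene that runs the other way, and 23 of those neighbours were tested. Against the ethanol control 6 neighbours fell and 5 rose, with a median of -0.01, where 14.2% of all genes tested fell and 13.0% rose. Against the 4OHT control 6 neighbours fell and 7 rose, where 19.8% of all genes tested fell and 19.1% rose. Folds of single neighbours below are against the ethanol control unless stated. Mtbp, which starts beside Mrpl13 and encodes a partner of the DNA replication initiator Treslin, had 7.13, 6.81 and 5.56 CPM in the libraries labelled KO, 34.8, 37.2 and 38.0 CPM in the 4OHT control and 31.3, 37.7 and 33.6 CPM in the ethanol control. Its fall (-2.39 ± 0.10, adjusted p = 4.5e-11, edgeR) stands beside -2.03 for Mrpl13. Mitd1, beside Mrpl30 and with a role in cell division, had 6.88, 7.83 and 7.07 CPM in the libraries labelled KO, 16.6, 18.0 and 18.7 CPM in the 4OHT control and 16.7, 19.1 and 17.1 CPM in the ethanol control. Mitd1 fell too (-1.28 ± 0.10, adjusted p = 1.1e-07, edgeR), beside -1.84 for Mrpl30. Wdfy1, an endosomal protein beside Mrpl44, fell by 0.62 (adjusted p = 2.6e-05, edgeR), beside -2.05 for Mrpl44.

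Rab6a, a GTPase of the Golgi beside Mrpl48, had 95.8, 97.4 and 90.5 CPM in the libraries labelled KO, 101, 92.9 and 95.7 CPM in the 4OHT control and 102, 102 and 98.7 CPM in the ethanol control and was not called (-0.10, adjusted p = 0.19, edgeR). Hira, a histone chaperone beside Mrpl40, fell by 0.93, beside 0.40 for Mrpl40. Ighmbp2, a helicase beside Mrpl21, rose by 0.28 while Mrpl21 fell by 0.53. Ncapd2, a condensin subunit beside Mrpl51, lay between the controls in the libraries labelled KO, as Mrpl51 did, with -0.27 against the ethanol control, 0.51 against the 4OHT control and -0.78 between the controls (adjusted p = 4.0e-07, edgeR). In the annotation the spans of Mrpl48 and Rab6a, Mrpl44 and Wdfy1, Mrpl13 and Mtbp and Mrpl21 and Ighmbp2 overlap on opposite strands; the strand setting used to count reads is not stated in the labels or files, and reads in the shared stretches may not have been told apart.

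**Figure D4:**
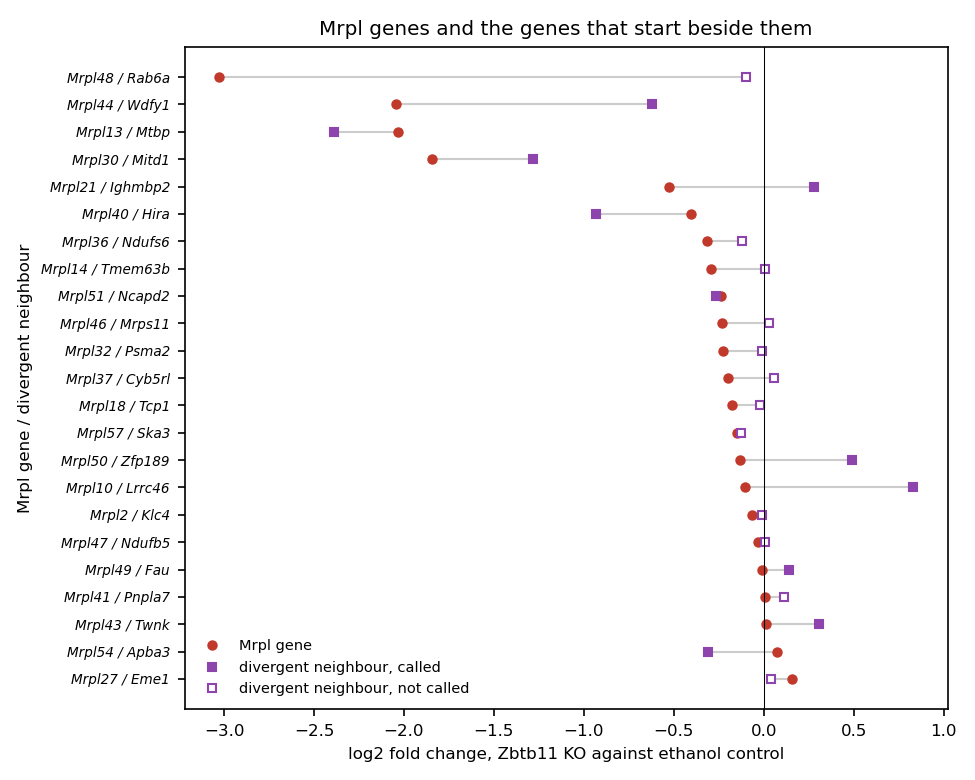
Log2 fold change in the libraries labelled Zbtb11 KO against the ethanol control of 23 Mrpl genes (circles) and of the protein-coding gene that starts within 1000 bases on the other strand (squares, filled where called), ordered by the Mrpl gene. Mtbp lies at -2.39 beside Mrpl13 at -2.03, and Mitd1 at -1.28 beside Mrpl30 at -1.84. Rab6a lies at -0.10 beside Mrpl48 at -3.03.

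The subunit also holds proteins that carry other symbols. Gadd45gip1, also known as CRIF1, had 19.4, 18.9 and 19.0 CPM in the libraries labelled KO, 24.8, 31.1 and 28.5 CPM in the 4OHT control and 29.4, 28.7 and 27.9 CPM in the ethanol control. It fell by 0.58 ± 0.08 against the ethanol control (adjusted p = 9.4e-05, edgeR). Mrps30, a large subunit protein despite its name, was not called (-0.20, adjusted p = 0.054, edgeR; 0.0012 with the replicate block). The RNA of the subunit, the 16S ribosomal RNA mt-Rnr2, was at 48.5% of its ethanol level in the libraries labelled KO (-1.04 ± 0.09, adjusted p = 1.4e-05, edgeR), with 20770, 22210 and 25590 CPM in them, 49570, 50680 and 54810 CPM in the 4OHT control and 45410, 52570 and 43380 CPM in the ethanol control. The 12S RNA of the small subunit, mt-Rnr1, was not called (0.25, adjusted p = 0.40, edgeR). Ribosomal RNA was depleted before sequencing, so both levels depend on what escaped depletion.

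Of 19 genes listed for large subunit assembly or modification of mitochondrial RNA, 6 fell and 1 rose against the ethanol control, where 14.2% of all genes tested fell and 13.0% rose. The median of the list was -0.18. With the replicate block 9 of the list fell and 2 rose, while 3625 of the 16224 genes tested fell and 3311 rose. Trub2, a pseudouridine synthase of mitochondrial RNA, had 10.9, 12.7 and 12.4 CPM in the libraries labelled KO, 54.5, 54.9 and 51.6 CPM in the 4OHT control and 44.5, 45.2 and 45.8 CPM in the ethanol control. With no overlap between the libraries labelled KO and either control, its fall of 1.92 ± 0.07 (adjusted p = 9.7e-12, edgeR) was the only one of the list past 1 on the log2 scale. Ngrn, which binds the 16S RNA, fell by 0.35, Malsu1, an assembly factor that docks on the Mrpl14 protein, by 0.40, and the RNA helicase Dhx30 by 0.18. Against the 4OHT control 6 genes of this list fell and 2 rose, where 19.8% of all genes tested fell and 19.1% rose. The median of the list there was -0.05, and Dhx30 was not called (-0.095, adjusted p = 0.19, edgeR).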

How the data were processed

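The deposited files, 1 for each library, hold raw read counts under versioned Ensembl gene identifiers. Per the submitters' processing notes, the build was mm9 and the tools included HTSeq, STAR, cutadapt, edgeR, DiffBind, MACS2 and Bowtie 1.1.2, with no roles given. Directional, rRNA-depleted libraries were made, per the labels' protocols. The 5 closing rows without a gene name were left out of library sizes and tests (reads without a feature 26.4% to 33.8%, ambiguous reads 0.78% to 0.91%). Symbols came from GENCODE M21 and matched 32620 of 37310 rows; that annotation and the RefSeq promoter table are on another assembly than the counts, so they served for names, lengths, neighbours and sequence.

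All 9 libraries were fitted together with edgeR 4.0.16 (R 4.3.3, TMM scaling, filterByExpr, robust quasi-likelihood F test, 1 mean per group, 6 residual degrees of freedom), with Benjamini-Hochberg adjustment over 16224 genes and calls at an adjusted p under 0.05. "Rose" and "fell" mean called. The method was tested on simulated data. The members, lists and tests were chosen with earlier results of these data known. Values per library are given for members called with a log2 fold change of at least 0.5 in size against the ethanol control and for the 3 with the highest mean CPM; promoters follow the largest falls, leaving out members under 1 CPM. Neighbours and 16S RNA were described after their values were seen. Length is that of the transcript with the longest coding sequence.

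Libraries with the same replicate number deviated together (9 pairs, r from 0.19 to 0.43 over genes, log2(CPM + 1)), so the replicate numbers pair the libraries. Alternatives were RLE or library-total scaling, DESeq2 1.42.0, other filters, fits of 2 groups, the replicate block and leaving out each library.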

Additional observations from a re-analysis of the deposited data

How the results depend on the processing

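In both comparisons of the libraries labelled KO the number of called members stayed within 1.5 times the reported 25 under every alternative run: 20 to 33 against the ethanol control and 21 to 32 against the 4OHT control, and 19 to 28 in each with 1 library left out. Of the calls, 19 of 25 against the ethanol control held under every alternative, and 17 of 25 against the 4OHT control. Those that did not were Mrpl14, Mrpl32, Mrpl37, Mrpl42, Mrpl53 and Mrpl55 against the ethanol control and Mrpl9, Mrpl11, Mrpl17, Mrpl32, Mrpl35, Mrpl46, Mrpl47 and Mrpl53 against the 4OHT control. Scaling by library totals alone moved the median to -0.15 against the ethanol control and -0.077 against the 4OHT control. Leaving out 1 library gave medians of -0.28 to -0.20 and -0.21 to -0.14. Between the controls, the replicate block gave 15 calls in place of 9, and leaving out 1 library gave 3 to 9: 3 without ethanol control replicate 2 or 4OHT control replicate 1, 4 without ethanol control replicate 3 and 5 without 4OHT control replicate 2 or 3. There 1 of 9 calls, Mrpl51, held under every alternative. The small difference of Mrpl12 against the 4OHT control (-0.06, not called) changed sign with library totals (0.025) and without labelled KO replicate 1 (0.007), and lay between -0.16 and 0.007 with 1 library left out; the cause was not tested. Mrpl53 was not tested under the filter of 1 CPM in 3 libraries or in the fits of 2 groups. With the replicate block 8 more members were called against the ethanol control, 7 more against the 4OHT control and 6 more between the controls, and no call of a member was lost. The block raised the calls over all genes too. Against the ethanol control it gave 3625 falls and 3311 rises, in place of 2307 and 2110. Against the 4OHT control it gave 4198 and 4139, in place of 3216 and 3103. With 3 libraries a group and 6 residual degrees of freedom, small changes of low members are the least certain.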

Other observations

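Falls were also uneven in size among genes named Mrps, most of which encode small subunit proteins. Of 29 such genes, with the large subunit gene Mrps30 among them, 12 fell and 1 rose in the libraries labelled KO against the ethanol control, with a median log2 fold change of -0.17, and 2 fell by at least 1. Of all genes tested 14.2% fell, 13.0% rose and 1.16% fell by at least 1 there. Against the 4OHT control 9 of the 29 fell and 4 rose, where 19.8% of all genes tested fell and 19.1% rose. The median there was -0.03, against 0.02 over all genes tested, and again 2 fell by at least 1. Mrps31 had 6.24, 8.61 and 6.03 CPM in the libraries labelled KO, 52.9, 59.0 and 51.0 CPM in the 4OHT control and 44.5, 44.9 and 40.9 CPM in the ethanol control. Mrps18c had 11.4, 12.3 and 12.7 CPM in the libraries labelled KO, 25.1, 26.0 and 27.8 CPM in the 4OHT control and 26.6, 29.1 and 24.5 CPM in the ethanol control. In both genes all libraries labelled KO lay below all control libraries.

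Of 14 genes for mitochondrial translation factors and related proteins, 4 fell and 1 rose against the ethanol control, where 14.2% of all genes tested fell and 13.0% rose, and none moved by 1 or more on the log2 scale. Against the 4OHT control 3 of the 14 fell and 3 rose, where 19.8% of all genes tested fell and 19.1% rose. Against the ethanol control Polrmt, the mitochondrial RNA polymerase, fell by 0.35, Gfm2, which helps to split ribosomes, by 0.31, and Oxa1l, the membrane insertase, by 0.20. Polrmt and Oxa1l also fell against the 4OHT control, whereas Gfm2 was not called there (-0.03, adjusted p = 0.78, edgeR). Gfm2 fell by 0.29 in the 4OHT control relative to the ethanol control (adjusted p = 0.0048, edgeR). Mtif2, the initiation factor, rose by 0.16 against the ethanol control. Tufm, the elongation factor Tu, was not called against the ethanol control (0.06) and rose by 0.59 against the 4OHT control (adjusted p = 3.4e-06, edgeR). It fell by 0.54 in the 4OHT control relative to the ethanol control.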
